A study of Mus musculus with 8 samples.

Results

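The genes described are 34 genes of aminoacyl-tRNA charging and of the response to the transcription factor ATF4, out of 54837 genes in the count table. They are 17 cytosolic aminoacyl-tRNA synthetases, 5 factors of the ATF4 response, 5 enzymes of amino acid and one-carbon synthesis, and 7 amino acid transporters. They were chosen by name around Cars, the cysteinyl-tRNA synthetase gene, whose RNA stood higher in both sorts of TIM-3+ cells than in wild-type cells. The question was whether other members shared that pattern, so the comparison of Cars with wild type is a description with no test. All 34 members were found in the table, and 33 passed the filter on low counts. Chac1, a glutathione-degrading enzyme induced by ATF4, did not pass: it had 7 reads in GFPhi library 1 and none in the other 7 libraries, where a count of 0 allows up to 3 reads.

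RNA was sequenced from CD4 T cells of mouse spleen in 3 groups. GFPhi (n = 3) was gated as TIM-3+ FLAG+, and as GFP+ FoxP3+, from transgenic mice, whose genotype is Foxp3-eGFP-Cre-ERT2 crossed to FSF-TIM-3. GFPLow (n = 3) came from that genotype too and was gated as TIM-3+ FLAG+, but as GFP- FoxP3-. WT (n = 2) was gated as TIM-3- FLAG-, and as GFP+ FoxP3+, from mice that have Foxp3-eGFP-Cre-ERT2 but lack FSF-TIM-3. Wild-type and transgenic mice alike received tamoxifen on 5 consecutive days before the spleen was taken. The allele ties GFP and a tamoxifen-dependent Cre recombinase to Foxp3, so the groups also differ in how they were gated. The labels give no age and do not say whether libraries of 1 group came from separate mice, so p-values measure the spread between these libraries, which may be technical in part.

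Total counts ran from 44446215 to 55388756 per library, and 18851 genes were tested. Havcr2, which encodes TIM-3, ran from 1077 to 1791 CPM (reads scaled to a common library size) in GFPhi and from 127 to 538 CPM in GFPLow, and stood at 0.876 and 0.172 CPM in WT. Foxp3 ran from 60.2 to 81.0 CPM in GFPhi and from 1.97 to 4.82 CPM in GFPLow, and was 41.7 and 63.2 CPM in WT. Cd3d, Cd3e and Cd3g were abundant in every library, but T cell markers were not even. The summed level of 5, with Cd4 and Cd5, was 8884 CPM in WT library 1 and 3484 to 3809 CPM in the other 7. Against WT library 1 alone, the log2 fold changes in GFPhi were -2.01 for Cd3d and -1.39 for Cd3g. Those of Cd3e, Cd4 and Cd5 were 1.27, 1.49 and 0.32. In that fit Cd4 was lower in GFPhi than in GFPLow, with a log2 fold change of -0.45. WT library 1 stood apart: 18599 genes had a count in it, against 21248 to 22185 in the other 7 libraries. Its scaling factor (TMM), which multiplies the library size, was 0.694, against 1.04 to 1.07 in the others. The lower factor raises every CPM of that library. Mitochondrial genes held 6.54% of its counts and ribosomal protein genes 15.2%, against at most 2.78% and 6.97% in the others. Results against WT are therefore given with and without that library. Xist was high in GFPhi library 3, GFPLow library 3 and WT library 2, at 184 to 242 CPM, and at most 0.264 CPM in the other 5. The Y-linked gene Ddx3y was at 6.16 CPM in WT library 2 and at 0 in GFPhi library 3 and GFPLow library 3. It ran from 170.3 to 228.5 CPM in the other 5 libraries. By these 2 genes, library 3 of each TIM-3+ sort did not come from the same animals as libraries 1 and 2. Whether libraries 1 and 2 of a sort came from separate mice is not known. WT library 2 is the WT library that remains where library 1 is left out, and the part of these values in the results was not tested.

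Aminoacyl-tRNA synthetases join each amino acid to its tRNA and so supply the ribosome. When an amino acid runs short, uncharged tRNA activates the kinase GCN2, which phosphorylates the initiation factor eIF2. General translation then falls while translation of ATF4 rises, and ATF4 induces synthetases, amino acid synthesis enzymes and transporters. The same factor is reached from the endoplasmic reticulum through the kinase PERK. Activated T cells use this programme and the transporters around it to meet the demand for amino acids during growth.

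ATF4 binds with a C/EBP partner at composite elements, and the core TGATGNAA was searched on both strands (TTNCATCA when read on the other strand) from 250 bases before to 50 bases after each RefSeq gene start (GRCm38.p6). It was present in 1304 of 32851 promoters, 3.97%, and in 1219 of 27025 genes, 4.51%. RefSeq promoters were held for 24 members, and 9 of these contained the core: Aars, Gars, Iars, Tars, Yars, Trib3, Chac1, Asns and Slc7a11. Cars, Hars, Lars, Nars, Rars, Vars, Wars, Slc7a5, Slc1a5 and Slc38a1 had no entry. Some of the windows of 28 bases follow, from the synthetases and Asns, the genes that the results turn on, read 5′ to 3′ on the gene's strand with the core in capitals.
Aars, chr8:111033841-111033868, plus strand: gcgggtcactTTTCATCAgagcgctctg
Gars, chr6:55037961-55037988, plus strand: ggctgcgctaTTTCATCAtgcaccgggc
Iars, chr13:49682127-49682154, plus strand: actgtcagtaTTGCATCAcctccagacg
Tars, chr15:11399656-11399683, minus strand: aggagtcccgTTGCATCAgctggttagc
Yars, chr4:129189896-129189923, plus strand: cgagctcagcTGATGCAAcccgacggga
Asns, chr6:7693215-7693242, minus strand, core starting 23 bases before the gene start: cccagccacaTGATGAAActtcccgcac
The letters of the Asns core are those of the element known from human ASNS as a nutrient-sensing response element. A match describes the sequence only and does not show binding. The promoter of Asns is shown over 250 bases, since that gene differed most between the TIM-3+ sorts.
Asns, chr6:7693210-7693459, minus strand: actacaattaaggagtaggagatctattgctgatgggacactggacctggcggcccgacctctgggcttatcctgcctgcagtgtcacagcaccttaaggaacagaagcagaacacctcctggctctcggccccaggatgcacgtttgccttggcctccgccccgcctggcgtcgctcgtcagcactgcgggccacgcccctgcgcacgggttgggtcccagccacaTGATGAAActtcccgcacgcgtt

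Cars (ENSMUSG00000010755, chromosome 7, 143557230 to 143600090 in GRCm38) had 41.8, 35.1 and 35.9 CPM in GFPhi, 60.8, 50.1 and 55.5 CPM in GFPLow, and 7.62 and 23.5 CPM in WT. All 6 TIM-3+ libraries lay above both WT libraries, and the GFPLow libraries lay above all GFPhi libraries. The log2 fold change was 1.27 ± 0.42 (SE) for GFPhi over WT and 1.83 ± 0.43 for GFPLow over WT. Against WT library 2 alone these were 0.68 and 1.25. The 2 comparisons share the WT libraries, so they are not independent.

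Leaving out Cars, 9 of the 32 tested members, or 28.1%, had all 6 TIM-3+ libraries above both WT libraries. Of all genes tested, 9.28% did. These members were 5 synthetases (Aars, Gars, Iars, Nars and Yars), 1 enzyme (Shmt2) and 3 transporters (Slc3a2, Slc38a1 and Slc38a2), and none of the ATF4 factors. No member had all 6 below both WT libraries, against 7.95% of all genes. The lowest TIM-3+ library of Gars stood at 1.22 times the higher WT library, that of Iars at 1.21 and that of Aars at 1.13, and the other 6 lay between 1.03 and 1.09. Just outside were Slc7a1 at 0.997 and Eprs at 0.996. A ratio of at least 1.1 was reached by these 3 of the 32 members, or 9.38%, and by 4.50% of all genes. The ratio of Cars, which the choice of members used, was 1.495 and is a description.

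**Figure D1:**
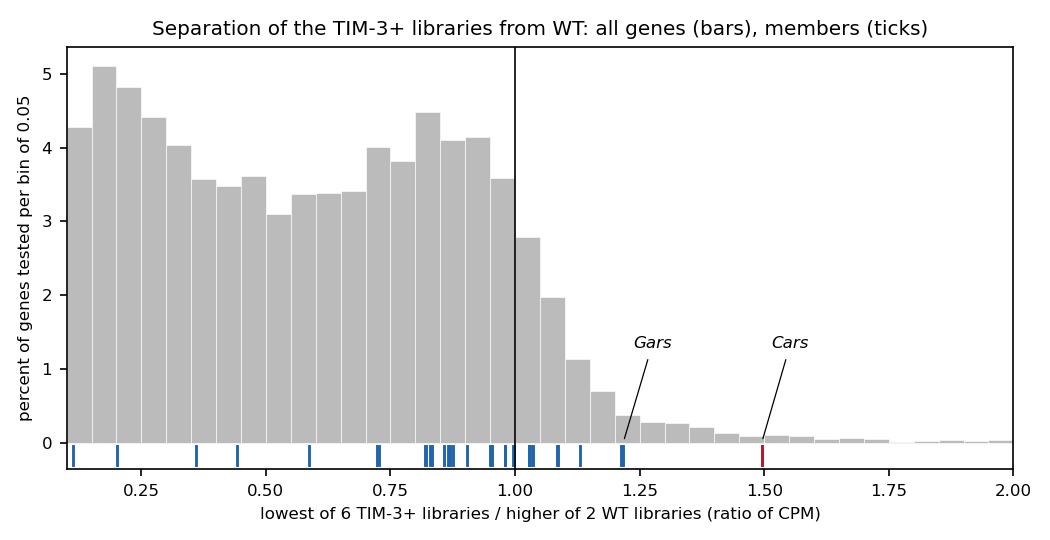
The lowest CPM among the 6 TIM-3+ libraries divided by the higher CPM of the 2 WT libraries, as the percent of all 18851 genes tested per bin (bars) and for each member (ticks; Cars in red). Values right of 1 mean that no TIM-3+ library overlapped WT. Genes below 0.1, which include Asns, and above 2 lie outside the axis. Gars, at 1.22, lies furthest right among the members other than Cars.

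Gars, the glycyl-tRNA synthetase gene, had 104, 101 and 111 CPM in GFPhi, 115, 115 and 126 CPM in GFPLow, and 33.9 and 83 CPM in WT. Its log2 fold change over WT was 0.85 ± 0.34 (SE, adjusted p = 0.352) in GFPhi and 1.02 ± 0.34 (adjusted p = 0.126) in GFPLow. Neither passed the threshold of 0.05 in the model of all 8 libraries, where no gene at all passed for GFPhi over WT. WT library 1 was then left out, and the remaining WT library assumed to vary like the other groups. The change of Gars was then 0.34 ± 0.10 (adjusted p = 0.955) in GFPhi, and Gars was higher in GFPLow than in WT by 0.52 ± 0.11 (adjusted p = 0.0282).

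Iars, for isoleucine, had 80.1, 88.5 and 90.0 CPM in GFPhi, 86.3, 103 and 100.3 CPM in GFPLow, and 33.6 and 66.1 CPM in WT. Aars, for alanine, had 54.8, 52.8 and 58.6 CPM in GFPhi, 58.0, 53.7 and 62.9 CPM in GFPLow, and 14.1 and 46.7 CPM in WT. In both genes the TIM-3+ sorts overlapped each other and WT library 1 was far below WT library 2. The smallest adjusted p of a synthetase other than Cars against WT was that of Iars in GFPLow, 0.11, where its level was higher than in WT by 0.95 ± 0.28 (SE) on the log2 scale. Without WT library 1 that change was 0.55, with an adjusted p of 0.0542, and the change of Iars in GFPhi was 0.38, with an adjusted p of 0.955. Aars then stood at 0.25 in GFPhi and 0.32 in GFPLow.

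Yars, for tyrosine, had 64.3, 75.0 and 62.2 CPM in GFPhi, 68.6, 67.8 and 81.2 CPM in GFPLow, and 7.37 and 57.3 CPM in WT. Nars, for asparagine, had 223, 232 and 250 CPM in GFPhi, 256, 226 and 265 CPM in GFPLow, and 125 and 217 CPM in WT. For both, the lowest TIM-3+ library cleared WT library 2 narrowly, and neither passed the test. The 11 remaining synthetases overlapped WT: Dars, Eprs, Hars, Kars, Lars, Qars, Rars, Sars, Tars, Vars and Wars. All 6 TIM-3+ libraries lay below WT library 2 for Qars and Rars, the glutaminyl and arginyl enzymes.

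Over the 17 synthetases together, the summed level was 2074, 2113 and 2102 CPM in GFPhi, 2179, 2052 and 2212 CPM in GFPLow, and 951 and 1991 CPM in WT. The TIM-3+ libraries therefore lay close to WT library 2 and far above WT library 1. The median log2 fold change of the 17 was 0.51 for GFPhi over WT and 0.63 for GFPLow over WT, and 0.11 in both without WT library 1. All 17 synthetases were higher in every TIM-3+ library than in WT library 1. Among the 32 members without Cars 25 were, or 78.1%, against 37.0% of all genes. Measured against WT library 2 alone, 10 of the 32 had all 6 TIM-3+ libraries above it, or 31.2% against 14.1% of all genes. Another 4 (Qars, Rars, Asns and Slc7a11), had all 6 below it, as did 15.6% of all genes. The 10 are the 9 named above and Trib3.

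**Figure D2:**
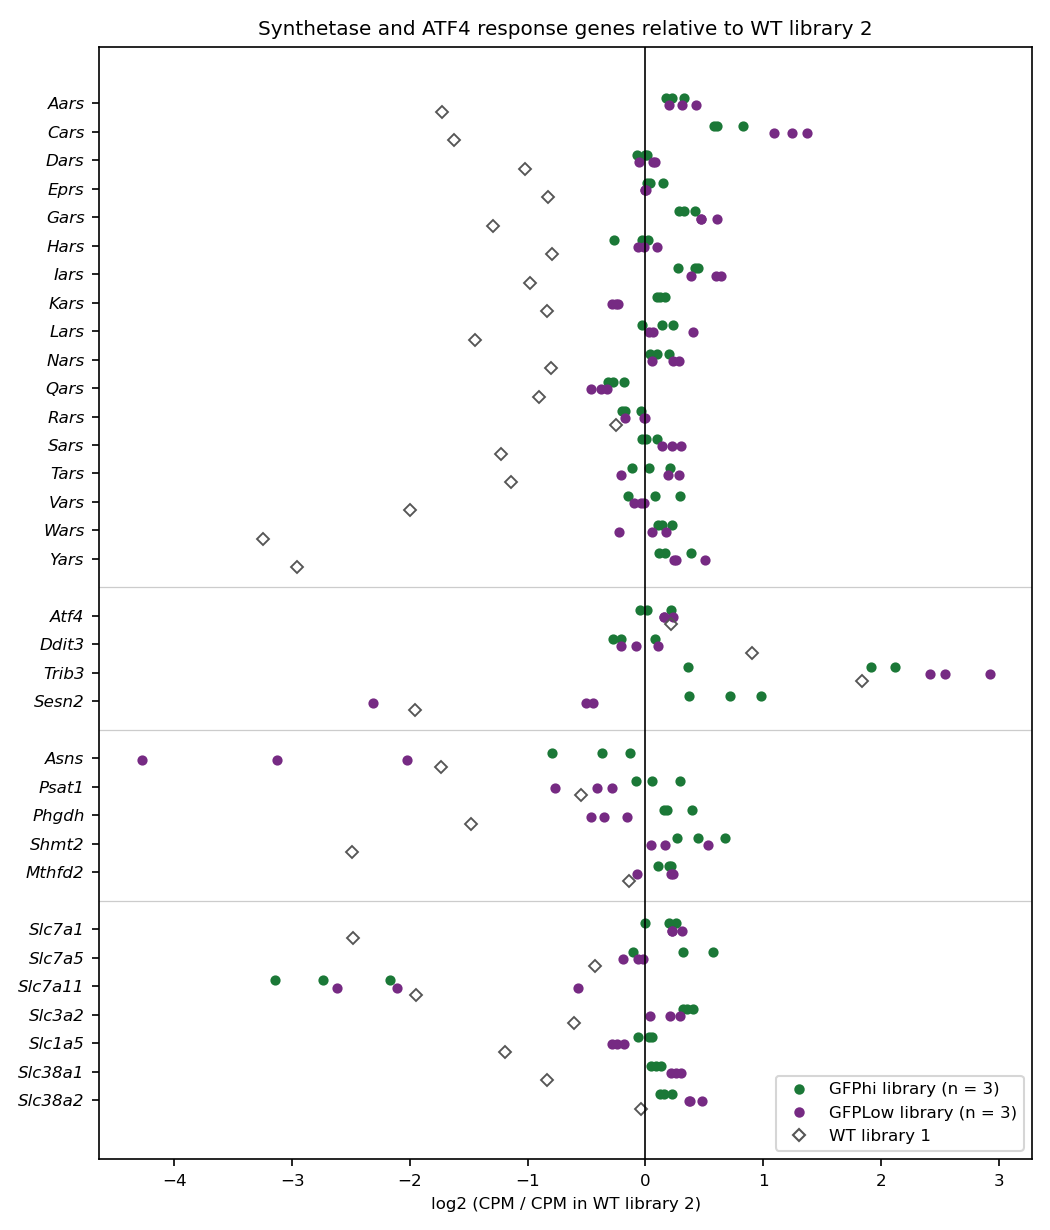
Level of each of the 33 tested members in each GFPhi library, each GFPLow library and WT library 1, as log2 of its CPM over the CPM of WT library 2 (vertical line at 0), grouped from top to bottom as synthetases, factors, enzymes and transporters. WT library 1 lies left of the line for all 17 synthetases. The TIM-3+ libraries lie around or just right of it, and those of Cars are furthest right among the synthetases.

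None of the 4 factors tested had all 6 TIM-3+ libraries above both WT libraries. Against WT library 2 alone Trib3 did, at a low level. Its lowest TIM-3+ library stood at 1.28 times that library, a ratio that 3.90% of all genes reached. Atf4 itself had 78.0, 75.0 and 89.7 CPM in GFPhi, 86.1, 86.2 and 90.7 CPM in GFPLow, and 90.0 and 77.3 CPM in WT. The groups overlapped, and the log2 fold change over WT was -0.05 ± 0.17 (SE) in GFPhi and 0.07 ± 0.17 in GFPLow. ATF4 is controlled largely at translation, which RNA levels do not show. Ddit3, which encodes the stress factor CHOP, had 46.0, 37.6 and 35.9 CPM in GFPhi, 46.8, 37.6 and 41.0 CPM in GFPLow, and 81.1 and 43.3 CPM in WT. The value of WT library 1 was the highest of the 8.

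Trib3, a pseudokinase induced by ATF4 and CHOP, had 0.862, 2.54 and 2.93 CPM in GFPhi, 3.59, 3.92 and 5.09 CPM in GFPLow, and 2.40 and 0.672 CPM in WT. Sesn2, an amino acid sensor upstream of mTORC1, had 10.4, 6.83 and 8.71 CPM in GFPhi, 1.06, 3.74 and 3.89 CPM in GFPLow, and 1.36 and 5.29 CPM in WT. The GFPhi libraries were the highest of the 8 for Sesn2 and the GFPLow libraries the highest for Trib3. Neither gene passed the test in any of the 3 comparisons of the 8-library model.

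Among the enzymes, Shmt2, the mitochondrial serine hydroxymethyltransferase, had 105, 79.1 and 89.9 CPM in GFPhi, 94.8, 68.2 and 73.9 CPM in GFPLow, and 11.7 and 65.8 CPM in WT. The lowest GFPLow library was close to WT library 2. Mthfd2, the next enzyme of the mitochondrial one-carbon pathway, ran from 121 to 131 CPM in GFPhi and from 108 to 133 CPM in GFPLow, and was 102 and 113 CPM in WT. Asns, Psat1 and Phgdh, which make asparagine and serine, differed between the TIM-3+ sorts and are described below.

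Asns (chromosome 6) lay on the other side of WT from Cars in the GFPLow sort. It had 8.57, 7.26 and 5.41 CPM in GFPhi, 2.32, 1.08 and 0.484 CPM in GFPLow, and 2.82 and 9.40 CPM in WT. All 3 GFPLow libraries lay below both WT libraries, while the GFPhi libraries lay between them. The log2 fold change of GFPLow over WT was -2.24 ± 0.70 (SE, adjusted p = 0.118), and -2.85 ± 0.64 (adjusted p = 0.0427) without WT library 1.

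Slc3a2 encodes the heavy chain shared by several amino acid exchangers. It had 126, 129 and 134 CPM in GFPhi, 123, 104 and 117 CPM in GFPLow, and 66.2 and 101 CPM in WT. Slc38a1, a sodium-coupled transporter of glutamine and other neutral amino acids, had 147, 152 and 143 CPM in GFPhi, 170, 165 and 161 CPM in GFPLow, and 77.3 and 138 CPM in WT. Neither passed the test against WT, and the GFPLow libraries lay above the GFPhi libraries for Slc38a1 and below them for Slc3a2.

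Slc38a2, a related transporter induced by amino acid shortage, had 177, 172 and 186 CPM in GFPhi, 207, 222 and 204 CPM in GFPLow, and 154 and 159 CPM in WT. It is the member of this list for which the WT libraries lay closest together, and the 3 groups did not overlap. Its log2 fold change over WT was 0.19 ± 0.16 (SE, adjusted p = 0.549) in GFPhi and 0.43 ± 0.16 (adjusted p = 0.158) in GFPLow. Without WT library 1 it was 0.17 ± 0.09 (adjusted p = 0.955) in GFPhi and 0.42 ± 0.09 (adjusted p = 0.0325) in GFPLow.

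The other transporters were Slc7a1 for cationic amino acids, Slc7a5 for large neutral amino acids, Slc1a5 for glutamine and other neutral amino acids, and Slc7a11 for cystine. Slc7a1 ran from 38.0 to 45.6 CPM in GFPhi and from 44.6 to 47.2 CPM in GFPLow, and was 6.81 and 38.1 CPM in WT. Slc7a5, the usual partner of Slc3a2 in activated T cells, was low: 4.43 to 7.09 CPM in GFPhi, 4.17 to 4.69 CPM in GFPLow, and 3.54 and 4.76 CPM in WT. Slc7a11 was at 0.500 CPM or less in every library, too few reads to show a difference of moderate size.

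In the model of all 8 libraries none of the 32 members tested besides Cars passed an adjusted p of 0.05 against WT in either sort. For GFPhi the background was 0 of 18851 genes (0%), with 2588 genes, 4 of them members other than Cars, at an unadjusted p under 0.05. DESeq2 gave an adjusted p to only 2039 genes there and called 320 of them, 15.7%, with 314 lower and 6 higher. Slc3a2 was the 1 member called, and it was among the 6. For GFPLow the background was 623 genes, 3.30%, and 5 members other than Cars were at an unadjusted p under 0.05. DESeq2 called 18.3% of genes there, and Gars, Iars, Asns and Slc38a2 among the members. Without WT library 1 edgeR called 0 genes for GFPhi, with 1011 at an unadjusted p under 0.05, and 5.88% for GFPLow, where Gars and Slc38a2 were among the 2.50% of genes higher and Asns among the 3.39% lower.

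The direction was more uniform than the calls. For GFPhi over WT, 28 of the 32 tested members without Cars had a log2 fold change above 0, with a median of 0.48, while 53.4% of all genes were above 0 with a median of 0.08. For GFPLow over WT 26 of 32 were above 0 with a median of 0.44, beside 50.7% and 0.02 for all genes. Without WT library 1 the medians were 0.12 for GFPhi and 0.07 for GFPLow, with 25 and 20 of 32 above 0. Most of the distance from WT was thus to WT library 1. In bulk RNA of sorted cells, less RNA per cell and fewer cells of a kind cannot be told apart.

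GFPhi and GFPLow cells were compared next, a contrast that the choice of Cars did not use. In the 8-library model 426 genes, 2.26%, passed the test and none of the 33 members did. DESeq2 called 7.31% of genes and 1 member, Asns. The smallest adjusted p of a member was that of Asns, 0.129, and 3 members had an unadjusted p under 0.05. That model estimates 1 spread from all 3 groups, so the distance between the 2 WT libraries enters it: the SE of Kars was 0.22 with all 8 libraries and 0.06 with the 6 TIM-3+ libraries. In the fit on those 6 libraries 12.3% of 17056 genes passed, and 7 of the 32 members tested did. By direction, 5 members were higher in GFPhi, beside 6.87% of all genes, and 2 were lower, beside 5.48%. The same 7 members passed in the model without WT library 1, where 9.66% of genes did.

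Asns, asparagine synthetase, differed most among them. Every GFPhi library lay above every GFPLow library, and the log2 fold change of GFPhi over GFPLow was 2.45 ± 0.54 (SE, adjusted p = 0.0240 in the 6-library fit), or 5.46-fold. Its level was low, so the GFPLow values rest on few reads. The call was lost when library 1 or 2 of GFPhi, or library 2 of GFPLow, was left out, with adjusted p-values up to 0.0902, while the log2 fold change stayed between 2.06 and 3.17.

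Of the enzymes of serine synthesis, 2 were also higher in GFPhi. Phgdh, which catalyses the first step, had 241, 205 and 208 CPM in GFPhi, 165, 133 and 144 CPM in GFPLow, and 65.7 and 184 CPM in WT. Its log2 fold change of GFPhi over GFPLow was 0.57 ± 0.10 (SE, adjusted p = 0.00992), and it passed with each of the 6 libraries left out. Psat1, which catalyses the second step, had 115, 98.1 and 89.3 CPM in GFPhi, 55.3, 71.0 and 77.6 CPM in GFPLow, and 64.7 and 94.4 CPM in WT. Its log2 fold change was 0.57 ± 0.15 (SE, adjusted p = 0.0421), and it passed in 2 of the 6 fits with a library left out. All 3 GFPhi libraries exceeded all 3 GFPLow libraries for both genes. Psph, which catalyses the last step and is not a member, did not pass: it had 71.1, 72.0 and 56.7 CPM in GFPhi and 60.8, 63.1 and 65.7 CPM in GFPLow. Shmt2 and Mthfd2 overlapped between the sorts and did not pass.

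**Figure D3:**
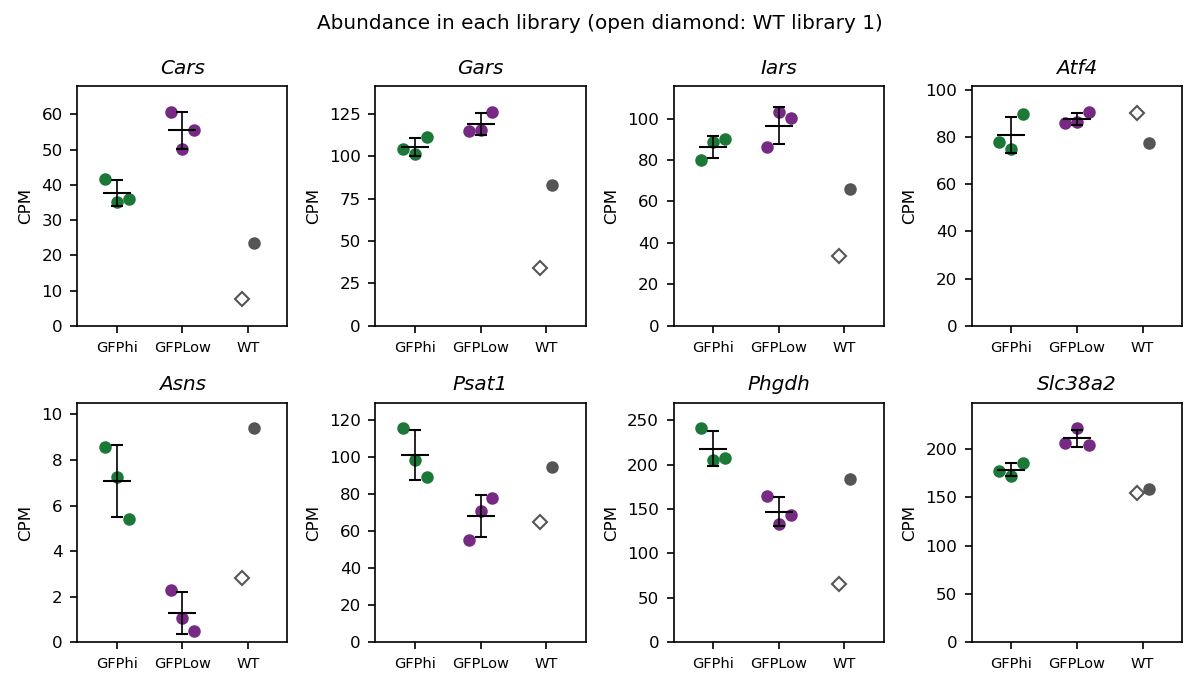
CPM of 8 members in each library, with the mean and SD as bars for GFPhi and GFPLow (n = 3 each) and single values for WT (n = 2, open diamond for WT library 1). Cars and Slc38a2 are higher in GFPLow than in GFPhi, Asns, Psat1 and Phgdh higher in GFPhi, and Atf4 overlaps in the 3 groups.

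Among the synthetases Kars, for lysine, differed in the opposite direction to Cars. Kars had 156, 163 and 159 CPM in GFPhi, 119, 122 and 124 CPM in GFPLow, and 81.5 and 146 CPM in WT. The sorts did not overlap: the log2 fold change of GFPhi over GFPLow was 0.39 ± 0.06 (SE, adjusted p = 0.00427), and it passed with each of the 6 libraries left out. Cars was lower in GFPhi than in GFPLow, at -0.56 ± 0.11 (SE) on the log2 scale with an adjusted p of 0.0165, and it passed in 3 of those 6 fits. The adjusted p of Cars reached 0.0705 without 1 library, and the call was lost on leaving out library 2 or 3 of GFPhi, or library 1 of GFPLow. The 15 other synthetases did not pass.

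Of the transporters, Slc1a5 had 221, 204 and 217 CPM in GFPhi, 180, 187 and 175 CPM in GFPLow, and 93.3 and 213 CPM in WT. Its log2 fold change of GFPhi over GFPLow was 0.24 ± 0.06 (SE, adjusted p = 0.0330). Slc38a2 was lower in GFPhi, at -0.24 ± 0.06 (SE, adjusted p = 0.0343) on the log2 scale. The 2 sorts did not overlap for either gene, but both calls were lost in each of the 6 fits with a library left out. The 4 factors tested did not pass. Sesn2 had a log2 fold change of 1.58 in the 8-library model with an adjusted p of 0.356. In the 6 fits with a TIM-3+ library left out and no WT library, its adjusted p ran from 0.0497 to 0.189. It passed in 1 of them.

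Over all members, 9 of 33 had every GFPhi library above every GFPLow library, 27.3% against 16.0% of all genes. These were Eprs, Kars, Qars, Sesn2, Asns, Psat1, Phgdh, Slc3a2 and Slc1a5. Another 6, or 18.2% against 14.0% of all genes, had every GFPhi library below every GFPLow library: Cars, Gars, Sars, Trib3, Slc38a1 and Slc38a2. The median log2 fold change of the members without Cars was -0.06, and that of the 5 enzymes was 0.57 with all 5 above 0, beside 0.01 for all genes. The members thus lay on both sides of 0 between the sorts.

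**Figure D4:**
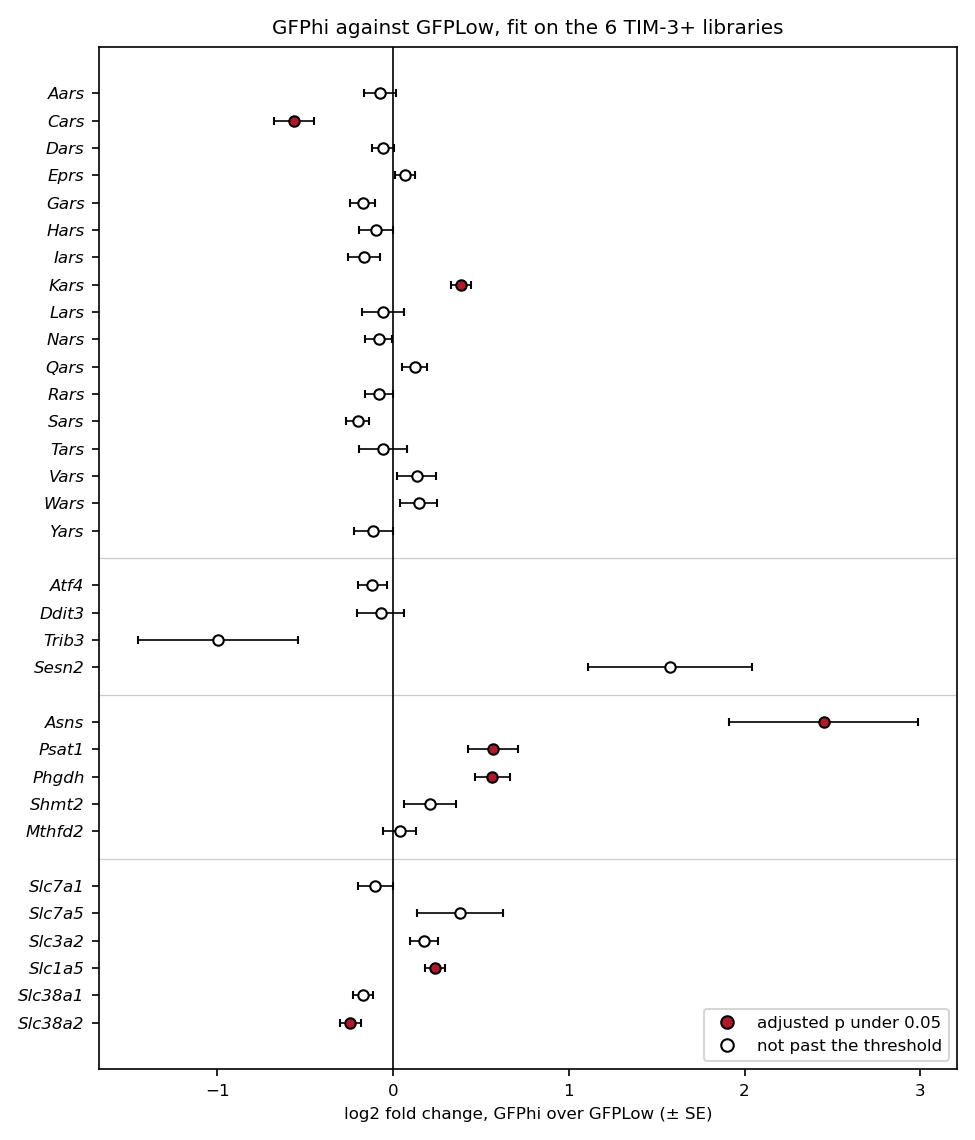
Log2 fold change of GFPhi over GFPLow (± SE) in the fit on the 6 TIM-3+ libraries for the 32 members tested there, grouped as synthetases, factors, enzymes and transporters from top to bottom. The 7 filled points have an adjusted p under 0.05: Cars and Slc38a2 left of 0, and Kars, Asns, Psat1, Phgdh and Slc1a5 right of it.

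Other genes of the pathway were compared between the sorts in the fit on the 6 libraries, where 6.87% of all genes were higher in GFPhi and 5.48% lower. Among 17 mitochondrial synthetases 1 was higher in GFPhi, Tars2, by 0.44 on the log2 scale, and none was lower. None of 6 other cytosolic synthetases and synthetase complex scaffolds passed, with Mars for methionine at 68.1, 64.5 and 66.9 CPM in GFPhi, 82.5, 76.2 and 77.7 CPM in GFPLow, and 17.2 and 52.9 CPM in WT. None of 13 genes of eIF2 and its kinases and phosphatases passed. Of 14 other ATF4 targets and partners tested, 2 were higher in GFPhi: Aldh18a1, the proline synthesis enzyme, by 0.58, and Eif4ebp1, a translation repressor, by 0.87.

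Of 12 genes of the XBP1 and ATF6 side of the unfolded protein response, 3 were higher in GFPhi and 1 lower in that fit, beside the 6.87% and 5.48% of all genes. Hspa5, the chaperone BiP, was higher by 0.40 on the log2 scale, Xbp1 by 0.60 and Pdia6 by 0.23, while Dnajc3 was lower with a log2 fold change of -0.34. Of 10 other amino acid transporters, 2 were higher in GFPhi: Slc36a4 by 0.98 and Slc43a1, a carrier of large neutral amino acids, by 1.77. Of 11 genes of amino acid and mTORC1 signalling only Rragd passed. Rragd, a Rag GTPase that recruits mTORC1 to lysosomes, had 17.5, 17.9 and 26.9 CPM in GFPhi, 3.21, 4.57 and 2.48 CPM in GFPLow, and 31.2 and 27.2 CPM in WT. It also passed in the 8-library model, with an adjusted p of 0.00617 for GFPhi over GFPLow and 0.00432 for GFPLow over WT.

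Of 8 genes of activation and growth, 4 were higher in GFPhi and none lower in the fit on the 6 libraries, beside 6.87% and 5.48% of all genes. Myc, a transcription factor of cell growth that also acts on amino acid transport, had 249, 235 and 199 CPM in GFPhi, 131, 122 and 119 CPM in GFPLow, and 57.5 and 206 CPM in WT, and differed between the sorts by 0.88 ± 0.09 (SE, adjusted p = 0.00111). Nr4a1, Irf4 and Odc1 were higher by 1.13, 1.72 and 1.56 on the log2 scale, and Odc1 also passed in the 8-library model with an adjusted p of 0.0414. Treg markers, which the gate separates, moved with this contrast: the summed level of 4 ran from 1954 to 2059 CPM in GFPhi and from 215 to 290 CPM in GFPLow, and was 3648 and 2264 CPM in WT. Their part in the differences of the members was not tested.

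Against WT, Slc1a4, a neutral amino acid transporter outside the members, was called in GFPLow in the 8-library model (adjusted p = 0.0286). It averaged 1.07 ± 0.09 CPM in GFPLow (SD, n = 3) and had no read in either WT library, so it was at least 11.0-fold higher when WT is set at 3 reads per library. Mars and Sars2, the mitochondrial seryl enzyme, were not called there. Without WT library 1 they were higher in GFPLow than in WT by 0.58 and 1.23 on the log2 scale. In that fit the 6 other cytosolic synthetases and scaffolds, Mars among them, had a median of 0.002, with 3 on each side of 0. The median of the 17 mitochondrial synthetases was 0.335, with 14 above 0. That of the 11 other transporters was -0.073, with 4 above 0 and 7 below. Further lists did not all rise in that fit either. Of 8 genes of activation and growth, 7 had a log2 fold change below 0 for GFPLow over WT, with a median of -0.62. The 12 genes of the unfolded protein response had a median of -0.001, with 6 on each side of 0. All 6 TIM-3+ libraries of Mars lay above both WT libraries, as did those of 9.28% of all genes tested. In the 8-library model the list of 6 that holds Mars had 3 genes above 0 and 3 below, in each sort over WT.

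Markers of other cells were low but not even. The summed level of 5 myeloid markers ran from 1.60 to 24.0 CPM in GFPhi and from 2.78 to 229 CPM in GFPLow, and was 9.25 and 31.5 CPM in WT. The high value was that of GFPLow library 3, where Lyz2 stood at 197 CPM. The summed level of 3 NK cell markers ran from 1.13 to 2.49 CPM in GFPhi and from 10.1 to 44.1 CPM in GFPLow, and was 8.86 and 1.59 CPM in WT. Klrb1c was lower in GFPhi than in GFPLow in the 6-library fit (adjusted p = 0.00649). The summed level of 3 plasma cell markers was 23.9 CPM in GFPLow library 2 and at most 2.38 CPM in the other libraries, with Sdc1 at 0 in GFPLow library 2. CD8 T cell markers summed to 16.2 to 37.7 CPM and erythroid markers to 0.785 to 13.4 CPM over the 8 libraries. Platelet markers summed to 40.6 CPM in WT library 1 and to at most 5.30 CPM in the other libraries. Of the B cell markers Cd79b was higher in GFPhi than in GFPLow (adjusted p = 0.00691). Their part in the differences of the members was not tested.

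Levels can be compared between genes only per length. Per kilobase of annotated exon, Phgdh was the most abundant member, at 87.7 CPM in GFPhi, 59.2 CPM in GFPLow and 50.1 CPM in WT on average. Among the synthetases Nars stood highest, at 54.0 CPM per kilobase in GFPhi, 57.1 in GFPLow and 39.3 in WT. Cars and Aars were the lowest of the 17: Cars had 5.71 CPM per kilobase in GFPhi, 8.43 in GFPLow and 2.36 in WT, and Aars had 5.97 in GFPhi, 6.27 in GFPLow and 3.27 in WT. Asns had 2.59 CPM per kilobase in GFPhi, 0.473 in GFPLow and 2.23 in WT, and Atf4 had 34.3 in GFPhi, 37.2 in GFPLow and 35.5 in WT.

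In the promoters, the 4 synthetases with all 6 TIM-3+ libraries above WT and a promoter entry (Aars, Gars, Iars and Yars) all held the core shown above, and 1 of the 6 other synthetases with an entry did (Tars). Outside the synthetases none of 3 such members held it, while 4 of the 11 others did, Asns and Trib3 among them. These are counts of a few genes, with no test.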

How the data were processed

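The authors deposited raw counts for each Ensembl gene. The submitters' processing notes name build GRCm38 and the tools HISAT2 2.1.0, SAMtools 1.9 and HTSeq 0.11.2. The labels' protocols give SMART-Seq HT for the cDNA and Nextera XT for the libraries. The strand setting is not given in the sources used here, so reads of overlapping or antisense genes cannot be told apart: Hars shares 8.0% of its exon bases with Hars2, Ddit3 4.0% with Mars, and Aars 14.3% with Exosc6, which had no count. Kars and Phgdh have processed pseudogenes. Gene names and exon lengths came from GENCODE vM21, matched for 54808 identifiers. Of 2 identifiers named Ddit3 the longer gene was used; the other had no count.

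Genes were kept by filterByExpr and libraries scaled by TMM. All 8 libraries entered 1 model of the group means in edgeR 4.0.16 in R 4.3.3 (glmQLFit, robust, 5 residual degrees of freedom). The 3 comparisons used the two-sided quasi-likelihood test with Benjamini-Hochberg adjustment over all genes, threshold 0.05. All CPM are TMM-scaled. Alternatives were DESeq2 1.42.0, median-of-ratios scaling, no filter, no robust estimation, a replicate block, only the groups compared, and each library left out. On the 6 TIM-3+ libraries, leaving out each and adding the block were chosen after seeing the data. The model was tested on simulated data.

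The members and the other gene lists were chosen with earlier results of these data known. Values in every library are given for Cars, members called in a comparison and members whose TIM-3+ libraries all lay above or below WT; Atf4, Ddit3, Trib3, Sesn2 and the promoters shown were added after their values were seen. Of each other list the members called are named, and Mars and Psph were added after their values were seen. Libraries of 1 group differed by more than sampling noise. Some marker genes and promoter windows are not reported here.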

Additional observations from a re-analysis of the deposited data

How the results depend on the processing

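No member passed the test in any comparison under median-of-ratios scaling, without robust estimation or without the filter on low counts, Cars against WT aside. The filter's absence gave 1 of 28881 genes for GFPhi against WT. DESeq2 called 1375 genes (7.31%) and 1 member between GFPhi and GFPLow. It called 320 (15.7%) and 1 for GFPhi against WT, and 3243 (18.3%) and 4 for GFPLow against WT. The fit on the 6 TIM-3+ libraries called 2105 genes (12.3%) and 7 of 32 members, and GFPLow with WT alone called 33 of 17619 genes. Leaving out 1 library, the calls between the TIM-3+ sorts ran from 105 to 1984 genes and from 0 to 7 members. For GFPhi against WT they ran from 0 to 8234 genes and from 0 to 24 members, and for GFPLow against WT from 213 to 9002 genes and from 0 to 23 members. The high ends against WT are those without WT library 2, where all contrasts rest on WT library 1 and 20524 genes were tested. The high end between the sorts is that without WT library 1, with 20545 genes tested. DESeq2 without WT library 1 called 3242 genes and 10 members between the sorts, 71 genes for GFPhi against WT, and 2448 genes and 8 members for GFPLow against WT. DESeq2 without WT library 2 called 3104 genes and 10 members, 8943 and 24, and 9579 and 23 in the same comparisons. In the same order, DESeq2 gave an adjusted p to 18527, 16934 and 17332 genes without WT library 1. Without WT library 2 it did so for 18510, 17316 and 18112 genes. The count of members, Cars included, with all 6 TIM-3+ libraries above both WT libraries was 10. It was 11 without WT library 1, 26 without WT library 2, and 14 with no TMM factor.

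The same replicate number occurs in GFPhi and GFPLow, and the titles give same-numbered libraries of both sorts the same tag. What the tag marks is not stated. The deviations of same-numbered libraries from their group means correlated weakly, at 0.067, 0.066 and 0.149, and the main model did not take the numbers as pairs. Each of the 6 libraries correlated best with its own number. The split by Xist and Ddx3y also followed the number, in the same way in both sorts. Both are hints that same-numbered libraries may be paired, and these correlations cannot exclude it, so fits with the replicate number as a block are given too. With the replicate block, edgeR called 182 of 18851 genes between the sorts and 158 of 18851 for GFPLow against WT, and no member. On the 6 TIM-3+ libraries alone the block gave 1752 of 17056 genes and 4 of 32 members: Cars, Kars, Asns and Phgdh.

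Some log2 fold changes of members that were not called changed sign. For GFPhi over WT, DESeq2 without WT library 1 gave -0.023 for Dars, -0.091 for Hars, -0.26 for Qars, 0.064 for Atf4 and -0.41 for Asns. DESeq2 without WT library 2 gave 0.076 for Rars and -0.22 for Trib3, and Rars was 0.017 without the filter. For GFPLow over WT, DESeq2 without WT library 1 gave -0.25 for Kars, -0.054 for Rars, -0.044 for Vars, -0.31 for Phgdh, -0.086 for Slc7a5 and -0.23 for Slc1a5. Without WT library 2 it gave 0.50 for Qars, -0.062 for Atf4, 1.06 for Sesn2, 0.047 for Psat1 and 0.43 for Slc7a11. Qars was 0.024 without the filter and 0.035 with the replicate block.

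With each library left out in edgeR, the lowest and highest log2 fold changes of GFPhi over GFPLow were -0.14 and 0.071 for Lars, -0.20 and 0.043 for Tars, -0.19 and 0.02 for Ddit3, and -0.061 and 0.093 for Mthfd2. For GFPhi over WT they were -0.14 and 0.14 for Rars, -0.13 and 0.065 for Atf4, -0.022 and 1.03 for Dars, -0.09 and 0.73 for Hars, -0.26 and 0.67 for Qars, -0.41 and 1.35 for Asns, and -0.16 and 1.65 for Trib3. For GFPLow over WT they were -0.86 and 1.11 for Sesn2, -0.38 and 0.55 for Qars, -0.25 and 0.60 for Kars, -0.053 and 0.22 for Rars, -0.042 and 1.98 for Vars, and -0.31 and 1.19 for Phgdh. In that comparison they were also -0.085 and 0.36 for Slc7a5, -0.23 and 0.98 for Slc1a5, -0.014 and 0.19 for Atf4, -0.47 and 0.10 for Psat1, and -1.47 and 0.47 for Slc7a11. The cause of these differences was not tested. Reads without molecular identifiers are not independent molecules, so limits from counts cover counting error only, and with 2 WT libraries a difference as small as that of Atf4 would not be detectable.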

Other observations

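Among genes around the members, some were far lower in WT library 1 than in all other libraries, and the values below were chosen after they were seen. Lars2, the mitochondrial leucyl-tRNA synthetase gene, stood at 177 CPM in WT library 1 and at 1655 CPM in WT library 2. Ppp1r15a, which encodes GADD34, the subunit that directs a phosphatase to eIF2, had 58.5, 30.8 and 37.5 CPM in GFPhi, 85.8, 43.1 and 42.2 CPM in GFPLow, and 3.80 and 29.9 CPM in WT. Its highest value was that of GFPLow library 1. Eif2ak1, the haem-regulated eIF2 kinase, had 65.6, 61.3 and 74.4 CPM in GFPhi, 66.8, 67.2 and 60.6 CPM in GFPLow, and 11.0 and 59.1 CPM in WT. Eif2s1, which encodes the eIF2 subunit that these kinases phosphorylate, went the other way, with 586 CPM in WT library 1 and 288 to 344 CPM in the other 7 libraries. None of these genes passed the test in any comparison of the 8-library model.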
